A study of Mus musculus with 6 samples.

Results

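Kinesins and cytoplasmic dynein are the motor proteins that walk along microtubules, kinesins mostly towards the outward, growing ends and dynein towards the centrosome. Transport kinesins carry mitochondria, vesicles and protein complexes through interphase cells, whereas mitotic kinesins are made mainly in dividing cells, where they build the spindle, move chromosomes and complete cytokinesis. LT-HSCs, the long-term haematopoietic stem cells from which all blood lineages derive, are mostly out of the cell cycle.

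The motor genes were those protein-coding genes whose symbol begins with Kif or Klc and a digit, or with Dync or Dynl, and that had at least 10 counts in at least 3 of the 6 libraries. Of 55357 gene identifiers in the table, 56 protein-coding genes had such a symbol and 41 reached the count minimum. They comprised 13 transport kinesin genes, 5 kinesins of microtubule dynamics and cilia, 8 mitotic kinesins, 14 dynein subunits and Kif1bp, whose product binds kinesins of the KIF1 family and is no motor itself. All 41 also passed the filter on low counts of the test. Of the 15 genes below the minimum, 9 had 0 counts in every library, among them the neuronal transport kinesins Kif1a and Kif5c and the dynein intermediate chain gene Dync1i1.

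The libraries came from bone marrow LT-HSCs of 3 Dcaf8 knockout and 3 wild-type mice, all young, sorted as CD150+ CD48- cells within the lineage-negative, c-Kit+ and Sca-1+ fraction. The labels give neither the construction of the knockout allele nor a Cre driver, strain, sex or age in weeks. Each library was amplified from 50 sorted cells, and the 3 libraries of a genotype stand for 3 mice. The comparison asked which transcripts differ in LT-HSCs that lack Dcaf8, whose product recruits substrates to CUL4-DDB1 ubiquitin ligases.

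Total counts per library ranged from 14461864 to 22386387, and a floor of 3 counts corresponded to between 0.132 and 0.209 CPM, which throughout means counts relative to library sizes corrected by TMM normalisation. Dcaf8 stood at 74.3, 38.1 and 45.2 CPM in knockout libraries 1 to 3, against 291, 293 and 204 CPM in wild-type libraries 1 to 3, so each library matched its label. The LT-HSC markers Procr, Slamf1, Kit, Ly6a, Mecom, Hlf and Fgd5 were counted in all 6 libraries. Wild-type replicate 2 contained neutrophil transcripts, with 6 neutrophil markers summing to 6099.8 CPM there and to between 3.33 and 29.8 CPM elsewhere, while the granule protease gene Elane was at 0 in it; the erythroid markers Hbb-bs and Hba-a1 also peaked there, at 49.3 CPM in sum. Wild-type replicate 3 had the fewest genes with a count, 15244, against 16183 to 17015 in the others. Knockout replicate 3 was the only library with Xist above 1.25 CPM (50.8 CPM), the X-inactivation RNA of female cells. T-cell markers Cd3e and Cd3g and the macrophage gene Adgre1 were at 0 throughout.

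No motor gene passed the test between genotypes. By quasi-likelihood test in edgeR, adjusted after Benjamini-Hochberg, 0 of the 41 were called, as were 0.0% of all 14592 genes tested. Dcaf8, the gene knocked out, was not called either, although its mean knockout level was 20.03% of that in wild-type. Its log2 fold change was -2.28 ± 0.28 (SE, adjusted p = 0.739 by edgeR). A missed call thus does not show an unchanged level. At an unadjusted p under 0.05 there were 4 motor genes (9.76%), Kif5b, Kif4, Kif13a and Dync1li2, beside a background of 5.82% of all genes tested; 3 of them had higher values in knockout (background 3.47%) and 1, Kif5b, a lower one (background 2.35%). DESeq2 called 1 motor gene, Kif5b, beside 0.471% of all genes it tested, and gave 4 an unadjusted p under 0.05 (background 5.27%). Knockout and wild-type libraries did not overlap for 5 motor genes (12.2%), beside 10.3% of all genes tested. Of these 5, Kif4, Kif18a and Kif13a stood above wild-type (7.32%, background 5.91%), and Kif5b and Kif1b below it (4.88%, background 4.43%). These shares lie near the background. Values were higher in knockout for 27 of the 41 (65.9%), beside 50.9% of all genes tested, with a median log2 fold change of 0.19, beside 0.01.

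**Figure D1:**
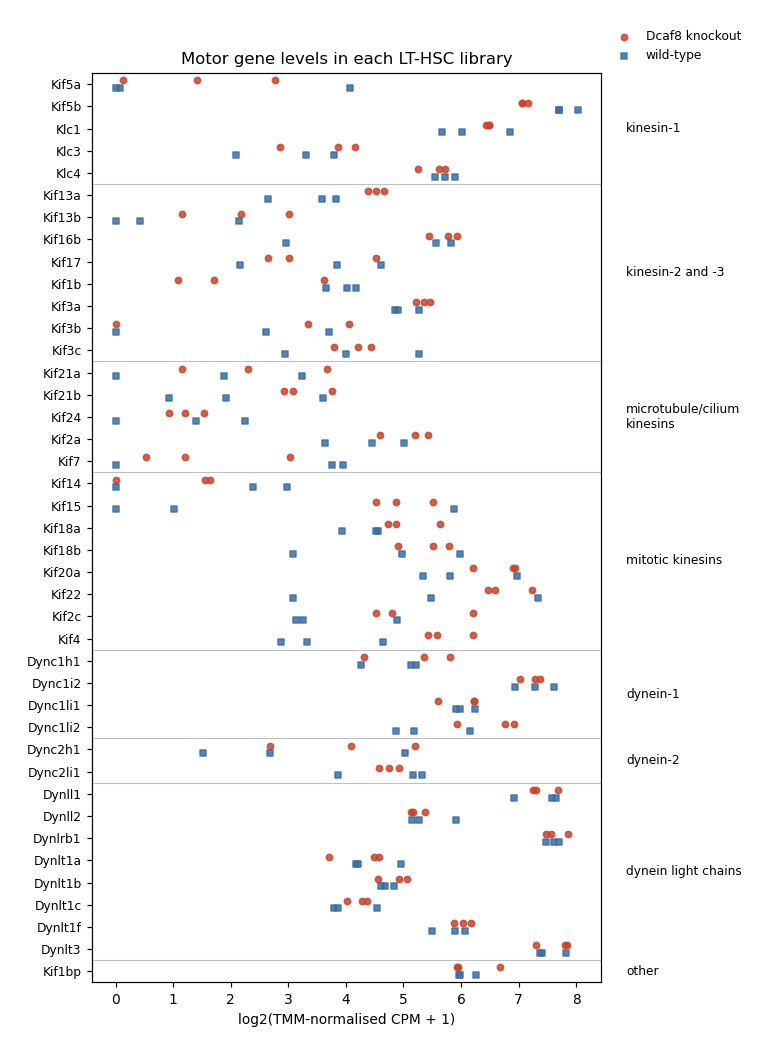
Level of each of the 41 motor genes in each library, as log2 of TMM-normalised CPM plus 1, grouped by role; circles are the 3 knockout and squares the 3 wild-type libraries. Kif5b lies apart between genotypes at a high level, the 8 mitotic kinesins spread widely among the wild-type libraries, and the dynein light chains lie close together.

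Kif5b, the ubiquitous heavy chain of kinesin-1 that moves mitochondria, lysosomes and vesicles outwards, had a lower level in every knockout library. It stood at 133, 132 and 143 CPM in knockout libraries 1 to 3, against 206, 259 and 207 CPM in wild-type libraries 1 to 3. The groups did not overlap, and the knockout libraries lay within a narrow range, with a mean of 136 ± 6 CPM against 224 ± 30.3 CPM in wild-type (SD, n = 3 each). The log2 fold change was -0.72 ± 0.16 (SE), with an unadjusted p of 0.00221 and an adjusted p of 0.739 by edgeR. DESeq2 gave Kif5b an adjusted p of 0.00456. Among 21 alternatives, whose adjusted p lay between 1.26e-05 and 1.00, Kif5b passed in all 8 DESeq2 fits and in no other. The highest wild-type value was in the library with neutrophil transcripts, and without that library, wild-type replicate 2, the log2 fold change was -0.60.

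Kif5b was nearly the sole kinesin-1 heavy chain, at 95.8, 98.7 and 99.9% of the summed CPM of the Kif5 genes in knockout libraries 1 to 3; it was the sole Kif5 gene counted in wild-type replicate 1 and made up 94.2 and 99.98% in wild-type replicates 2 and 3. Its close relative Kif5a, a mainly neuronal heavy chain, stood at 5.79, 1.67 and 0.0905 CPM in knockout, against 0, 15.9 and 0.0507 CPM in wild-type libraries. The Kif5a level was thus highest in the library with neutrophil transcripts; their part in it was not tested.

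The kinesin-1 light chains, which join the heavy chain to cargo, overlapped between genotypes. Klc1, the most abundant light chain gene, stood at 88.6, 88.7 and 85.3 CPM in knockout, against 64.1, 49.98 and 115 CPM in wild-type libraries 1 to 3. The wild-type values enclosed those of the knockout, and the log2 fold change was 0.20 ± 0.32 (SE, adjusted p = 0.976 by edgeR). Klc4 averaged 45.6 ± 7.66 CPM in knockout and 52.1 ± 6.34 CPM in wild-type cells, and Klc3 12.2 ± 5.48 and 8.32 ± 4.82 CPM in the same order (SD, n = 3 each). Klc2 was below the count minimum. Scaled to exon length, the level of Kif5b over the summed level of Klc1, Klc3 and Klc4 was 0.342, 0.377 and 0.412 in knockout, against 0.646, 0.867 and 0.479 in wild-type libraries 1 to 3. That ratio was formed after the values were seen and is given with no test.

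Among transport kinesins of the kinesin-2 and kinesin-3 families, Kif13a and Kif1b lay apart in opposite directions. Kif13a, a kinesin-3 that moves endosomal cargo, stood at 19.9, 21.9 and 24.4 CPM in knockout, against 5.24, 13.2 and 11.01 CPM in wild-type libraries 1 to 3. Every knockout value was above every wild-type value, and the log2 fold change was 1.14 ± 0.45 (SE), with an unadjusted p of 0.0376 and an adjusted p of 0.841 by edgeR. Kif1b, a kinesin-3 that carries mitochondria and vesicles, stood at 2.28, 1.11 and 11.3 CPM in knockout, against 15.2, 17.02 and 11.6 CPM in wild-type libraries. Knockout replicate 3 came close to the lowest wild-type library, and the log2 fold change of -1.45 ± 0.69 (SE, adjusted p = 0.869 by edgeR) was -2.99 without it. Without that library DESeq2 called Kif1b (adjusted p = 5.27e-05).

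**Figure D2:**
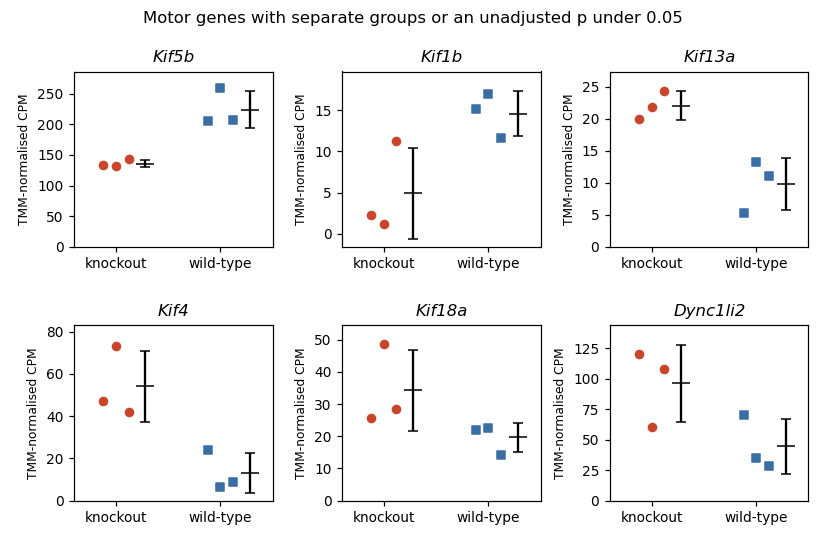
TMM-normalised CPM of the 5 motor genes whose groups did not overlap and of Dync1li2, whose groups overlap, in 3 knockout (circles) and 3 wild-type (squares) libraries, with the mean and SD beside the points. Kif5b lies at 132 to 143 CPM in knockout and 206 to 259 in wild-type libraries, and Kif1b nearly meets between knockout replicate 3 and wild-type replicate 3.

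The kinesin-2 genes, whose motor works in vesicle traffic and in intraflagellar transport, showed no separation. Kif3a averaged 39.6 ± 3.43 CPM in knockout and 31.5 ± 5.37 CPM in wild-type cells (SD, n = 3 each), with a log2 fold change of 0.35 ± 0.30 (SE). Its partner Kif3b was at 0 in knockout replicate 3 and wild-type replicate 3 and at 5.12 to 15.6 CPM in the others. Kif16b, an endosomal kinesin-3 and the most abundant gene of these families, stood at 53.4, 60.1 and 42.4 CPM in knockout, against 46.2, 6.79 and 55.9 CPM in wild-type libraries 1 to 3. The single low value was again in wild-type replicate 2. Kif3c, Kif17 and Kif13b had log2 fold changes of -0.21 ± 0.63, -0.10 ± 0.78 and 1.58 ± 1.23 (SE). Over the 13 transport kinesins 7 had higher and 6 lower values in knockout, with a median log2 fold change of 0.20, and that median came to -0.21 when knockout replicate 1 was left out, to -0.08 when wild-type replicate 3 was and to 0.41 when wild-type replicate 1 was. Summed levels were 465, 431 and 433 CPM in knockout, against 480.4, 505 and 509.9 CPM in wild-type libraries, with Kif5b included. The lower knockout sums did not extend to the 8 kinesin-2 and kinesin-3 genes. These summed to 172, 155 and 151 CPM in knockout, against 151, 119.7 and 126 CPM in wild-type libraries.

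Of the 5 members that regulate microtubule ends or cilia, Kif2a, a microtubule depolymerase, had the highest mean level. Kif2a stood at 42.1, 35.9 and 23.1 CPM in knockout, against 11.4, 31.4 and 20.9 CPM in wild-type libraries 1 to 3. The groups overlapped, with a log2 fold change of 0.63 ± 0.45 (SE, adjusted p = 0.939 by edgeR). Leaving out wild-type replicate 1 gave 0.35, and leaving out wild-type replicate 2 gave 1.04. Kif21a, Kif21b, Kif24 and Kif7, a regulator of Hedgehog signalling at the ciliary tip, ranged from 0 to 14.5 CPM, and Kif7, Kif21a and Kif24 were at 0 in 1 wild-type library each.

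**Figure D3:**
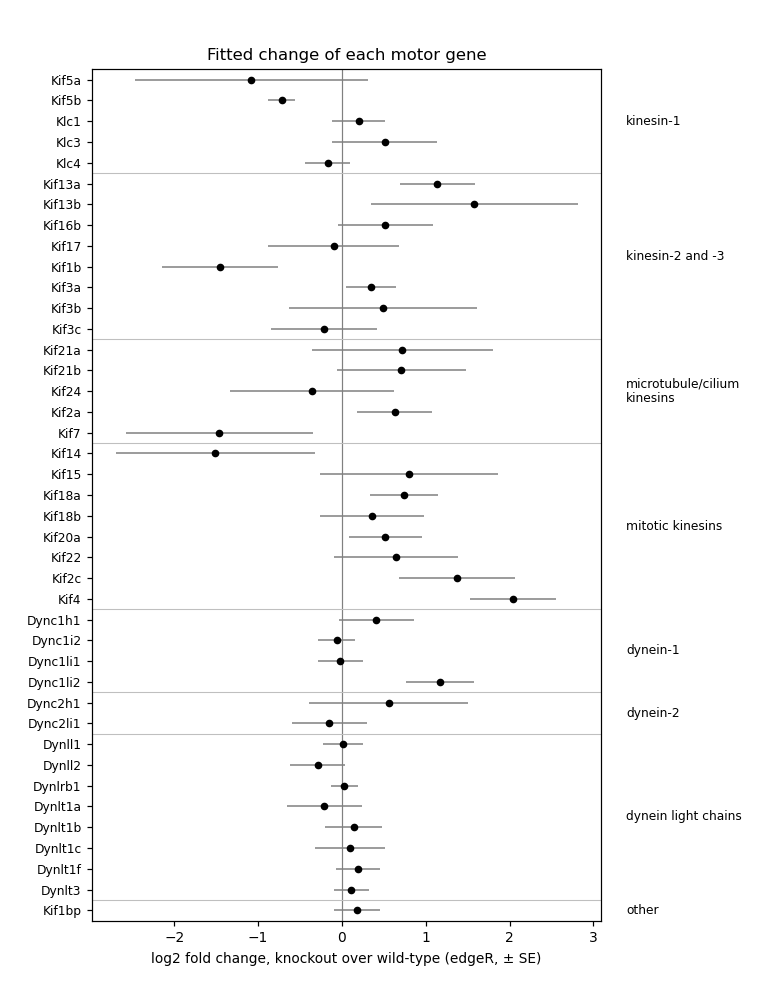
Fitted log2 fold change of each of the 41 motor genes, knockout over wild-type, with its SE from the edgeR fit (points and bars), grouped by role. The fitted values run from -1.51 for Kif14 to 2.04 for Kif4; the dynein light chains, of which the 4 Dynlt1 copies are uncertain, lie between -0.29 and 0.19, and low-count kinesins have the widest bars.

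The mitotic kinesins had higher values in knockout for 7 of 8 genes, with a median log2 fold change of 0.70, beside 0.01 for all genes tested. Kif4, the chromokinesin that condenses chromosomes and shapes the central spindle, showed the largest difference. It stood at 47.03, 73.3 and 42.02 CPM in knockout, against 24.1, 6.35 and 8.98 CPM in wild-type libraries 1 to 3. The groups did not overlap, and the log2 fold change was 2.04 ± 0.51 (SE), with an unadjusted p of 0.00441 and an adjusted p of 0.739 by edgeR. DESeq2 gave Kif4 an unadjusted p of 0.000796 and, with genotype as the only term, an adjusted p of 0.105 with all libraries. It called Kif4 without wild-type replicate 1 (adjusted p = 1.03e-09) or knockout replicate 3 (0.0457). Kif4 is X-linked, and the library with Xist, knockout replicate 3, had the lowest knockout level; without it the log2 fold change was 2.19 by DESeq2.

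Kif18a, which damps chromosome movements at the metaphase plate, stood at 25.7, 48.7 and 28.4 CPM in knockout, against 22.01, 22.5 and 14.3 CPM in wild-type libraries 1 to 3. The groups did not overlap but came close, and the log2 fold change was 0.74 ± 0.41 (SE, adjusted p = 0.899 by edgeR). Without knockout replicate 2, the highest library, it was 0.47. Kif2c, the centromeric depolymerase MCAK, stood at 26.9, 73.1 and 21.9 CPM in knockout, against 28.6, 7.8 and 8.52 CPM in wild-type libraries. Here wild-type replicate 1 lay above 2 of the 3 knockout libraries, and the log2 fold change of 1.37 ± 0.69 (SE) had an adjusted p of 0.878 by edgeR. By DESeq2 it was 1.43 with all libraries, 0.70 without knockout replicate 2 and 2.30 without wild-type replicate 1.

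The remaining mitotic kinesins set wild-type replicate 1 apart from the other wild-type libraries. Kif20a, needed for cytokinesis, stood at 73.3, 118 and 121 CPM in knockout, against 124, 55.2 and 39.4 CPM in wild-type libraries 1 to 3. Kif22, the chromokinesin Kid, stood at 87.9, 149 and 94.9 CPM in knockout, against 161, 43.6 and 7.46 CPM in wild-type libraries. In both the highest value of all 6 libraries was that of wild-type replicate 1. Kif15, a spindle motor, stood at 21.9, 28.4 and 44.8 CPM in knockout, against 57.9, 1.02 and 0 CPM in wild-type libraries. Kif18b, which shortens astral microtubules, stood at 29.1, 54.2 and 44.5 CPM in knockout, against 61.99, 7.47 and 30.5 CPM in wild-type libraries. Both genes again had their maximum in wild-type replicate 1 and overlapped between genotypes. Kif14, a cytokinesis kinesin, was low at 0, 1.95 and 2.13 CPM in knockout, against 6.92, 4.22 and 0 CPM in wild-type libraries, and was the mitotic kinesin on the other side (log2 fold change -1.51 ± 1.19, SE). With all libraries the log2 fold changes were 0.52 ± 0.43 for Kif20a, 0.65 ± 0.74 for Kif22, 0.80 ± 1.06 for Kif15 and 0.36 ± 0.62 for Kif18b (SE). Without wild-type replicate 1 they were 1.12, 2.06, 5.92 and 1.14 in the same order. Without wild-type replicate 3 they were 0.22, 0.11, 0.19 and 0.32, and without wild-type replicate 2 that of Kif18b was -0.14. With wild-type replicate 1 left out, DESeq2 called 8 motor genes, Kif20a, Kif22, Kif15, Kif2c, Kif4, Kif5b, Kif13b and Dync1li2. The same fit called 1062 genes of any kind, against 68 with all libraries, so the rise in calls was not limited to motor genes.

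High and low levels of the 8 genes fell in the same libraries. Of the 8, 5 had their highest level in wild-type replicate 1 and 3 in knockout replicate 2; wild-type replicates 2 and 3 held 3 and 5 of the lowest levels, with Kif14 tied at 0 between wild-type replicate 3 and knockout replicate 1. Summed levels were 312, 547 and 399 CPM in knockout, against 487, 148 and 109 CPM in wild-type libraries 1 to 3. A list of 22 other mitotic genes had higher values in knockout for 21, beside 50.9% of all genes tested, and a median log2 fold change of 0.45. Mki67, the 1 gene with a lower value, had a log2 fold change of -0.11, and Top2a had one of 0.02. Of the 22, 0 were called by edgeR or DESeq2 and 1, Cdk1, had an unadjusted p under 0.05, beside 5.82% of all genes tested. The list summed to 1689.8, 2985 and 2011 CPM in knockout, against 3297, 846 and 668 CPM in wild-type libraries. The 2 wild-type libraries that were low for the kinesins were also low for that list, with 8 and 14 of its 22 lowest values. Of those libraries one contained the neutrophil transcripts and the other the fewest genes with a count; the part of either in the low levels was not tested. In pools of 50 cells, fewer dividing cells and less mitotic RNA per cell cannot be told apart.

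The ratio of summed mitotic to summed transport kinesin levels overlapped between genotypes, at 0.671, 1.27 and 0.923 in knockout, against 1.01, 0.293 and 0.214 in wild-type libraries 1 to 3. Leaving out wild-type replicate 1, 2 or 3 put the median log2 fold change of the mitotic kinesins at 1.60, 0.38 or 0.27, and leaving out knockout replicate 2 put it at 0.45. The spread between libraries of 1 genotype differed by class as well. The median coefficient of variation of the mitotic kinesins was 33.8% in knockout and 80.5% in wild-type libraries, beside 32.6% and 43.5% for 9532 tested genes in the same range of mean levels. For transport kinesins it was 23.3% in knockout and 57.9% in wild-type libraries.

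**Figure D4:**
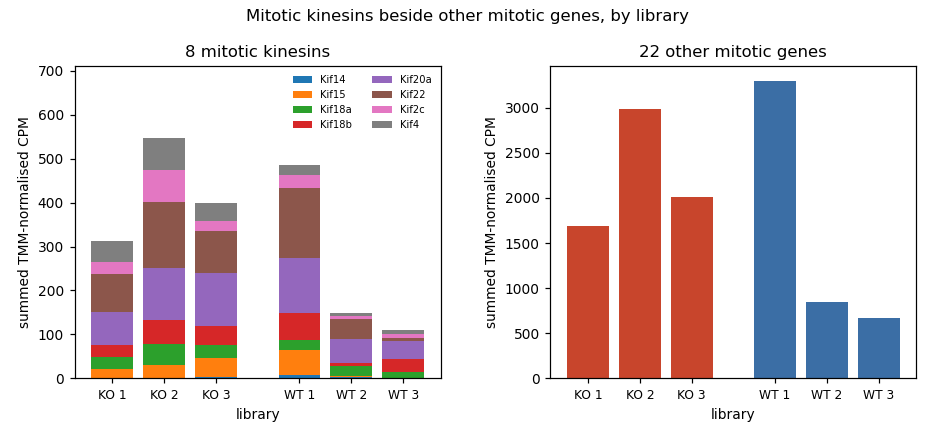
Left, summed TMM-normalised CPM of the 8 mitotic kinesins in each library, stacked by gene; right, the sum over 22 other mitotic genes in the same libraries. Both sums are lowest in wild-type replicates 2 and 3 (148 and 109 CPM at left), and wild-type replicate 1 lies among or above the knockout libraries.

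Because the mitotic kinesins varied together across libraries, their promoters were searched for TTTGAA on both strands (TTCAAA in the direction of the gene), the letters of the cell cycle genes homology region, an element known from promoters of genes expressed in late cell cycle phases. RefSeq promoter windows of GRCm38.p6, 250 bases before to 50 after the annotated start, were at hand for 30 of the 41 members. The letters were found in 6 of 7 mitotic kinesins (85.7%), in 0 of 10 transport kinesins and in 0 of 9 dynein genes, beside 20.2% of all 27025 genes in the table and 14.9% of the 9910 tested genes in it. The first base of the match lay at position 20 in Kif4, 4 in Kif18b, -19 in Kif15 and -17 in Kif22, counted from 1 at the start with -1 before it, and at -103 in Kif2c and -228 in Kif14. Kif15 and Kif22 held another match at -234 and -215. CCAAT, searched on both strands, was in 4 of the 7 mitotic kinesins (57.1%) and 5 of the 10 transport kinesins (50.00%), beside 41.1% of all genes. The 4 windows with a match near the start are shown for the position of the letters, with that of Kif18a, which held none, for comparison; each runs from 120 bases before to 30 after the start, and capitals mark TTTGAA or TTCAAA. They lie at chrX:100625945-100626094 (plus strand) for Kif4, chr9:122950961-122951110 (plus) for Kif15, chr11:102925095-102925244 (minus) for Kif18b, chr7:127042391-127042540 (minus) for Kif22 and chr2:109280618-109280767 (plus) for Kif18a.
Kif4: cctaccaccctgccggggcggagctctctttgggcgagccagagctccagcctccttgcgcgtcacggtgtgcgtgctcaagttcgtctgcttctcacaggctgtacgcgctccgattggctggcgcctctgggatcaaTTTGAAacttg
Kif15: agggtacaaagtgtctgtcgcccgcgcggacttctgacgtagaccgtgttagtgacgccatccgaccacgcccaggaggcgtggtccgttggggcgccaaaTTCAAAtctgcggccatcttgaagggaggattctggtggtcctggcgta
Kif18b: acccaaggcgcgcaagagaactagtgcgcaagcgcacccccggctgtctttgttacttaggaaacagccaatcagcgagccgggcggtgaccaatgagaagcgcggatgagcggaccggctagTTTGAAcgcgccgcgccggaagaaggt
Kif22: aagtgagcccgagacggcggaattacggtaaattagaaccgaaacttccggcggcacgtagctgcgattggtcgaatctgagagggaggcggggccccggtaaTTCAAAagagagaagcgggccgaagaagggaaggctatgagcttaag
Kif18a: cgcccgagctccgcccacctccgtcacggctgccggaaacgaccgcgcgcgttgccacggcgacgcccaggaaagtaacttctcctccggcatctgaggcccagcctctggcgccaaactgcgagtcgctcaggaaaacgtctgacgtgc
A match is a description of the letters in these windows; occupancy by any factor was not measured. Kif18a, with no match, was 1 of the 2 mitotic kinesins whose groups did not overlap, and Kif4, with a match, was the other.

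Cytoplasmic dynein-1, the main motor towards the centrosome, overlapped between genotypes in its heavy and intermediate chains. Dync1h1, the heavy chain that holds the motor, stood at 55.01, 18.8 and 39.98 CPM in knockout, against 18.3, 36.4 and 34.00 CPM in wild-type libraries 1 to 3. The values overlapped widely, with a log2 fold change of 0.41 ± 0.45 (SE, adjusted p = 0.971 by edgeR). Dync1i2, the intermediate chain that binds dynactin and the most abundant of the 4 heavy, intermediate and light intermediate chain genes, stood at 154, 129 and 165 CPM in knockout, against 196, 121 and 154 CPM in wild-type libraries. Its log2 fold change was -0.06 ± 0.22 (SE).

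Both light intermediate chain genes, which connect dynein to cargo adaptors, were counted in every library. Dync1li2 stood at 120.2, 60.3 and 108 CPM in knockout, against 70.04, 35.2 and 28.1 CPM in wild-type libraries 1 to 3. Wild-type replicate 1 lay above knockout replicate 2, and the log2 fold change was 1.17 ± 0.40 (SE), with an unadjusted p of 0.0208 and an adjusted p of 0.781 by edgeR; without wild-type replicate 1 it was 1.64 and DESeq2 called Dync1li2. Dync1li1 averaged 64.96 ± 15.3 CPM in knockout and 65.2 ± 7.98 CPM in wild-type cells (SD, n = 3 each), with a log2 fold change of -0.02 ± 0.27 (SE). The difference between the 2 genes was not tested.

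Dynein light chains, small dimers shared with other complexes, had steady levels across libraries. Dynlrb1, a roadblock-type light chain, stood at 187, 232 and 177 CPM in knockout, against 177, 194 and 207 CPM in wild-type libraries 1 to 3, with a log2 fold change of 0.03 ± 0.16 (SE). Dynll1, which also binds many proteins outside dynein, averaged 170.5 ± 30.3 CPM in knockout and 170.4 ± 43.7 CPM in wild-type cells, and X-linked Dynlt3 202 ± 38.9 and 187 ± 34.3 CPM in the same order (SD, n = 3 each). Together with Dynll2, these made 4 genes with log2 fold changes from -0.29 to 0.11. Their median coefficient of variation was 16.3% in knockout and 21.99% in wild-type libraries, beside 28.7% and 36.5% for all genes tested. That background was not matched for mean level. Dynlt1a, Dynlt1b, Dynlt1c and Dynlt1f are near-identical copies between which the counting could split reads, so their separate values are uncertain; they enter the counts and medians over all members. Their sum was 124, 145 and 118 CPM in knockout, against 133, 125 and 98.99 CPM in wild-type libraries.

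Dynein-2, the motor that returns intraflagellar trains from the ciliary tip, was counted at lower levels. Its heavy chain Dync2h1 stood at 35.6, 16.01 and 5.43 CPM in knockout, against 1.86, 5.43 and 31.6 CPM in wild-type libraries 1 to 3. The light intermediate chain Dync2li1 stood at 29.4, 25.9 and 22.8 CPM in knockout, against 34.9, 13.6 and 38.9 CPM in wild-type libraries. Groups overlapped for both. Subunits of dynein-2 carried under other symbols, Wdr34, Wdr60 and Tctex1d2, had log2 fold changes of 0.81, 0.45 and 0.23, none past the threshold.

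Compared per length, as CPM per kilobase of exon, the light chain Dynlrb1 ranked highest in both genotypes (197 in knockout and 191 in wild-type cells), above Dynlt3 (78.4 and 72.5) and Dynll1 (43.8 and 43.8). In wild-type cells Kif5b had the highest level per kilobase of the kinesin heavy chains among the 41 genes, at 28.1, above Kif20a at 16.8 and Kif22 at 14.4. In knockout cells Kif20a at 23.99 and Kif22 at 22.6 stood above Kif5b at 17.01. Among wild-type libraries Kif20a and Kif22 varied more than 3-fold, and the order was not tested. Dync1h1 stood at 2.42 in knockout and 1.89 in wild-type cells, far below the intermediate chain Dync1i2 at 18.03 and 18.95 CPM per kilobase. Lengths were those of all annotated exons of a gene merged, and coverage along the transcripts was not examined.

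The partners of the motors were then read from lists of their cofactors, in which edgeR and DESeq2 called 0 members in either direction. Of all genes tested 5.82% had an unadjusted p under 0.05 and 50.9% higher values in knockout, and the counts of each list stand beside these shares. Dynactin, the activator of dynein, had lower values in knockout for 9 of 12 genes, with a median log2 fold change of -0.19; 1 passed an unadjusted p under 0.05, Actr1a, the filament-forming actin-related protein. Actr1a stood at 131, 103 and 132 CPM in knockout, against 170, 156 and 168 CPM in wild-type libraries 1 to 3 (log2 fold change -0.41 ± 0.17, SE). Of 15 tested dynein regulators and adaptors 10 had lower values; the centrosomal adaptor Nin averaged 8.9 ± 3.93 CPM in knockout and 21.5 ± 5.82 CPM in wild-type cells (SD, n = 3 each).

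Among 12 tested kinesin adaptors 8 had higher and 4 lower values, and 3 passed an unadjusted p under 0.05. Fez2, whose family links kinesin-1 to cargo, stood at 77.9, 50.3 and 75.99 CPM in knockout, against 28.9, 29.8 and 35.6 CPM in wild-type libraries 1 to 3. Rhot1, the mitochondrial GTPase Miro1 that couples kinesin-1 and dynein to mitochondria, stood at 118, 122 and 159.9 CPM in knockout, against 199, 174 and 234 CPM in wild-type libraries. The groups overlapped for neither gene, and both missed the threshold, with adjusted p of 0.739 and 0.769 by edgeR. Kifap3, the non-motor subunit of kinesin-2 (named after its values were seen), averaged 12.5 ± 7.98 CPM in knockout and 33.8 ± 15.6 CPM in wild-type cells (SD, n = 3 each), with a log2 fold change of -1.51 ± 0.62 (SE, adjusted p = 0.841 by edgeR).

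Of 13 tested tubulins 7 had higher and 6 lower values, and 0 had an unadjusted p under 0.05. Of 11 microtubule-associated genes 5 had higher and 6 lower values; Mapre2, which binds growing microtubule ends, averaged 107 ± 12.5 CPM in knockout and 144 ± 18.8 CPM in wild-type cells (SD, n = 3 each). Intraflagellar transport genes, the cargo adaptors of kinesin-2 and dynein-2, had higher values for 10 of 17, with a median log2 fold change of 0.04. Of kinesins with other symbols, Cenpe, a kinetochore motor, stood at 55.8, 75.03 and 16.3 CPM in knockout, against 69.98, 12.1 and 8.63 CPM in wild-type libraries 1 to 3, with the same high and low wild-type libraries as the mitotic kinesins.

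**Figure D5:**
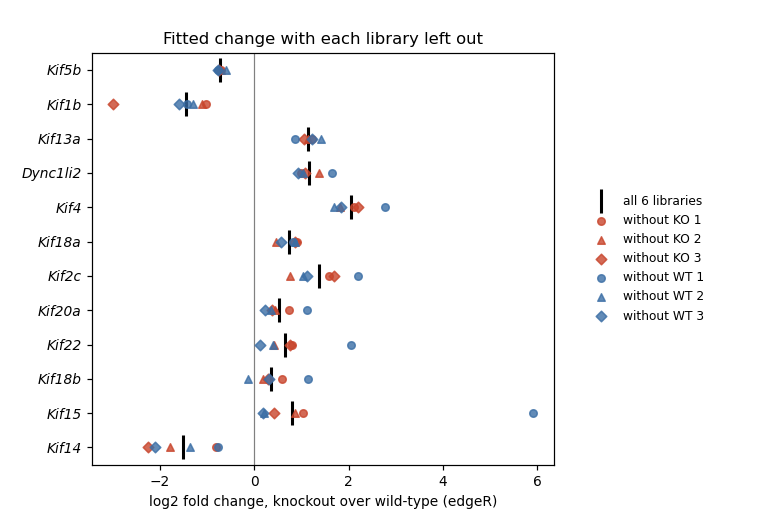
Log2 fold change of 12 motor genes, knockout over wild-type, from edgeR with all 6 libraries (bars) and with each library left out (symbols). Kif5b moves least, between -0.78 and -0.60, Kif15 reaches 5.92 without wild-type replicate 1, and Kif18b is at -0.14 without wild-type replicate 2.

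Low counts limited several motors. Of the 41 genes 8 (19.5%) had 0 counts in at least 1 library, with 1, 0 and 1 in knockout and 1, 2 and 5 in wild-type libraries 1 to 3. Of all 14592 genes tested, 341, 315 and 560 were at 0 in knockout and 545, 748 and 1230 in wild-type libraries 1 to 3. Wild-type replicate 3 thus had the most genes at 0 in both counts. At the edge of the count minimum, Kif5a was kept with 132, 24 and 2 counts in knockout and 0, 328 and 1 in wild-type libraries 1 to 3, whereas Kif9, a ciliary kinesin, was left out with 414, 168 and 5 counts in knockout and 0 in all 3 wild-type libraries, and Kif1c, Kif19a and Kif6 each reached 10 counts in 2 libraries.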

How the data were processed

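RNA-seq libraries of LT-HSCs were analysed from the table of raw read counts per gene deposited by the authors, with 1 column per library. Per the submitters' processing notes, Trimmomatic 0.39, HISAT2 2.2.1, Picard 2.26.1, HTSeq 1.99.2, DESeq2 1.38.3 and build mm39 are named, without roles; neither annotation release nor strand setting is given in the sources used here. Per the labels' protocols, full-length cDNA of 50 cells was amplified, tagmented and sequenced on a NovaSeq instrument; the protocols name no molecular identifiers, so floors cover counting error only. Symbols were matched for 52081 of 55357 identifiers, covering 99.87% of counts, and exon lengths and gene types came from GENCODE M21 (GRCm38), so no coordinates of the counted build are given.

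The test was edgeR 4.0.16 (R 4.3.3) with filterByExpr, TMM and a robust quasi-likelihood fit (legacy off) on genotype alone over 14592 genes, Benjamini-Hochberg adjustment and a threshold of 0.05; SEs derive from the F statistic. On counts simulated with the fitted dispersions, the median estimates of the test had the direction that was set, and no other outcome is given here. Alternatives were RLE and upper-quartile factors, DESeq2 1.42.0, no filter or one of 5 CPM in at least 3 libraries, voom with sample weights (limma 3.58.1), the legacy fit, the replicate number as a block and each library left out; DESeq2 with a block or without each library was added after seeing the data. Named with every library's value are the most abundant member of each role, members with an unadjusted p under 0.05 or without overlap, Kif5b, Dync1h1 and the mitotic kinesins, and at most 2 genes per cofactor list; further members are given for comparison. Members and lists were chosen with earlier results of these data known. A further 3 kinesin genes are not reported here.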

Additional observations from a re-analysis of the deposited data

How the results depend on the processing

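No motor gene passed the threshold in any edgeR or limma-voom fit, the fits without 1 library included (0 to 0 motor genes and 0 to 0 of all genes). DESeq2 called 68 genes and 1 motor gene. The labels number replicates 1 to 3 in both genotypes, but same-numbered libraries did not deviate together (r = 0.0593, -0.0381 and 0.0058 over 14592 genes) and only replicate 1 correlated best with its own number. With the replicate block edgeR called 0 genes and DESeq2 called 654, of which 3 were motor genes (Kif5b, Kif4 with an adjusted p of 0.00459, and Dync1li2). Without 1 library each, DESeq2 called 381, 333 and 391 genes (knockout replicates 1 to 3 left out) or 1062, 163 and 159 (wild-type replicates 1 to 3), and 1 to 8 motor genes, the most without wild-type replicate 1. Dcaf8 passed in no edgeR or limma-voom fit, with a log2 fold change of -2.28 and an adjusted p of 0.739 in the main edgeR fit. By DESeq2 its log2 fold change was -2.32 and, with the block, -2.36, both past the threshold. Without knockout replicates 1 to 3 DESeq2 gave -2.66, -2.14 and -2.22. Without wild-type replicates 1 to 3 it gave -2.25, -2.24 and -2.47. The transport kinesin median ranged from -0.21 to 0.41 by edgeR and from -0.25 to 0.44 by DESeq2 without 1 library (-0.06 without wild-type replicate 3), and that of the microtubule and cilium kinesins from -0.62 to 0.88 and from -0.54 to 0.75. The direction held over all alternatives for 13 of 18 named motor genes. It reversed without 1 library for Dync1i2 (-0.22 to 0.13 by edgeR, -0.24 to 0.11 by DESeq2, 0.03 and 0.01 without knockout replicate 2), Dync2li1 (-0.50 to 0.14 and -0.52 to 0.10), Dynlrb1 (-0.08 to 0.11 and -0.09 to 0.11, -0.02 and -0.03 without wild-type replicate 1), Kif18b (-0.14 to 1.14 and -0.13 to 1.15) and, by DESeq2, Dync1h1 (-0.02 to 0.67). Dync2li1 also stood at 0.17 by limma-voom. The cause was not tested. Counts of a few CPM from 50 cells limit the low kinesins most.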

Other observations

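A pseudogene of the Dynlt1 family, Dynlt1-ps1, was counted at 60.1, 69.05 and 59.9 CPM in knockout, against 62.5, 58.2 and 64.5 CPM in wild-type libraries 1 to 3. Kif27, a kinesin below the count minimum, had 155 counts in knockout replicate 3 and 0 in the other 5 libraries. Kif6 had 35, 0 and 1 counts in knockout and 10, 0 and 0 in wild-type libraries 1 to 3.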
